A study of Mus musculus with 15 samples.

Results

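Collagen genes encode the chains of the structural proteins that give the extracellular matrix of fat its fibres and sheets. They were followed here across 4 groups of inguinal white adipose tissue, the subcutaneous fat pad of the groin of the mouse, sequenced as polyA RNA. A gene was included where its symbol in the count table is Col, a number, the letter a and a number, and where its level in CPM (counts scaled to the library total) reached 0.5 in at least 3 libraries. Of 44 such rows 40 were kept, against 15558 genes passing the same limit among the 24015 of the table. Col2a1, Col9a1, Col19a1 and Col25a1 reached the limit in 0 libraries and were left out, and Col8a2 was the member nearest to it, reaching it in 3. Differences could be tested for 38 members, since Col8a2 and Col22a1 fell below the filter on low counts used for all genes.

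All mice were of strain C57BL/6, for which the labels give no other allele, and were kept for 2 weeks at thermoneutrality before 5 days of vehicle or CL, given by intraperitoneal injection. The groups are 2-month-old mice on vehicle (Young_Ctrl, n = 4) or on CL (Young_CL, n = 4), and 12-month-old mice on vehicle (Old_Ctrl, n = 3) or on CL (Old_CL, n = 4). Old_Ctrl holds replicates 1, 3 and 4, the remaining number being not used here. In the labels CL is written out as cardiolipin, while the same letters often stand for an agonist of β-adrenergic receptors, so the agent is called CL throughout. The question set by the series is how age alters the beige remodelling of the pad that CL induces. No label ties a library to its own animal, so the p-values speak of the spread among these libraries, which may be technical.

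Each collagen is a triple helix of 3 chains, made of 1, 2 or 3 gene products. Fibrillar collagens (types I, III and V and relatives) form the fibres between fat cells, and fibril-associated collagens sit on their surface. Type IV forms the basement membrane sheet that wraps each adipocyte and capillary, types XV and XVIII are proteoglycans of the basement membrane zone, and type VI forms beaded filaments just outside it. In adipose tissue, fibroblasts and progenitors are the main source of fibrillar collagen, while adipocytes, endothelial cells and mural cells also make basement membrane chains.

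Total counts ran from 6115542 in Young_CL 3 to 51577001 in Old_Ctrl 3, so that 3 counts of a gene stood at 0.491 and 0.0582 CPM in these libraries. The adipocyte markers, the check of the tissue label, summed to between 11281 and 63124 CPM. Summed levels of 10 skeletal muscle markers were 2267 to 4271 CPM in Young_CL 1, 2 and 3, 6759 in Old_Ctrl 3 and 3109 in Old_CL 3, against 42.1 to 334 in all other libraries. Libraries 1, 2 and 4 of Old_CL differed from each other by a robust SD of at most 0.0933 in log2 ratios, against at least 0.116 in the other pairs within a group, but still by more than counting noise. They were kept as 3 samples. In bulk tissue, fewer cells of a type and less RNA per cell cannot be told apart.

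The 40 members took 0.744% ± 0.188 (SD, n = 4) of all counts in Young_Ctrl, 0.659% ± 0.134 in Young_CL and 0.689% ± 0.0182 in Old_CL. In Old_Ctrl the share was 1.20% ± 0.636 (n = 3), with 1.86%, 0.587% and 1.16% in replicates 1, 3 and 4. The sum thus lay in a similar range in 3 groups, while its make-up did not. Type I and III chains (Col1a1, Col1a2, Col3a1) made up 59.8% ± 4.50 of the collagen counts in Young_Ctrl, 50.1% ± 9.39 in Young_CL, 61.2% ± 8.44 in Old_Ctrl and 30.7% ± 1.25 in Old_CL. Col4a1 and Col4a2 together made up 14.7% ± 3.03, 20.4% ± 6.07, 13.6% ± 5.06 and 33.3% ± 1.49 in the same order. All 4 Old_CL libraries had more type IV than every other library (32.2% to 35.5%), and Young_CL 4 came next with 29.4%. These shares are descriptions with no test.

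**Figure D1:**
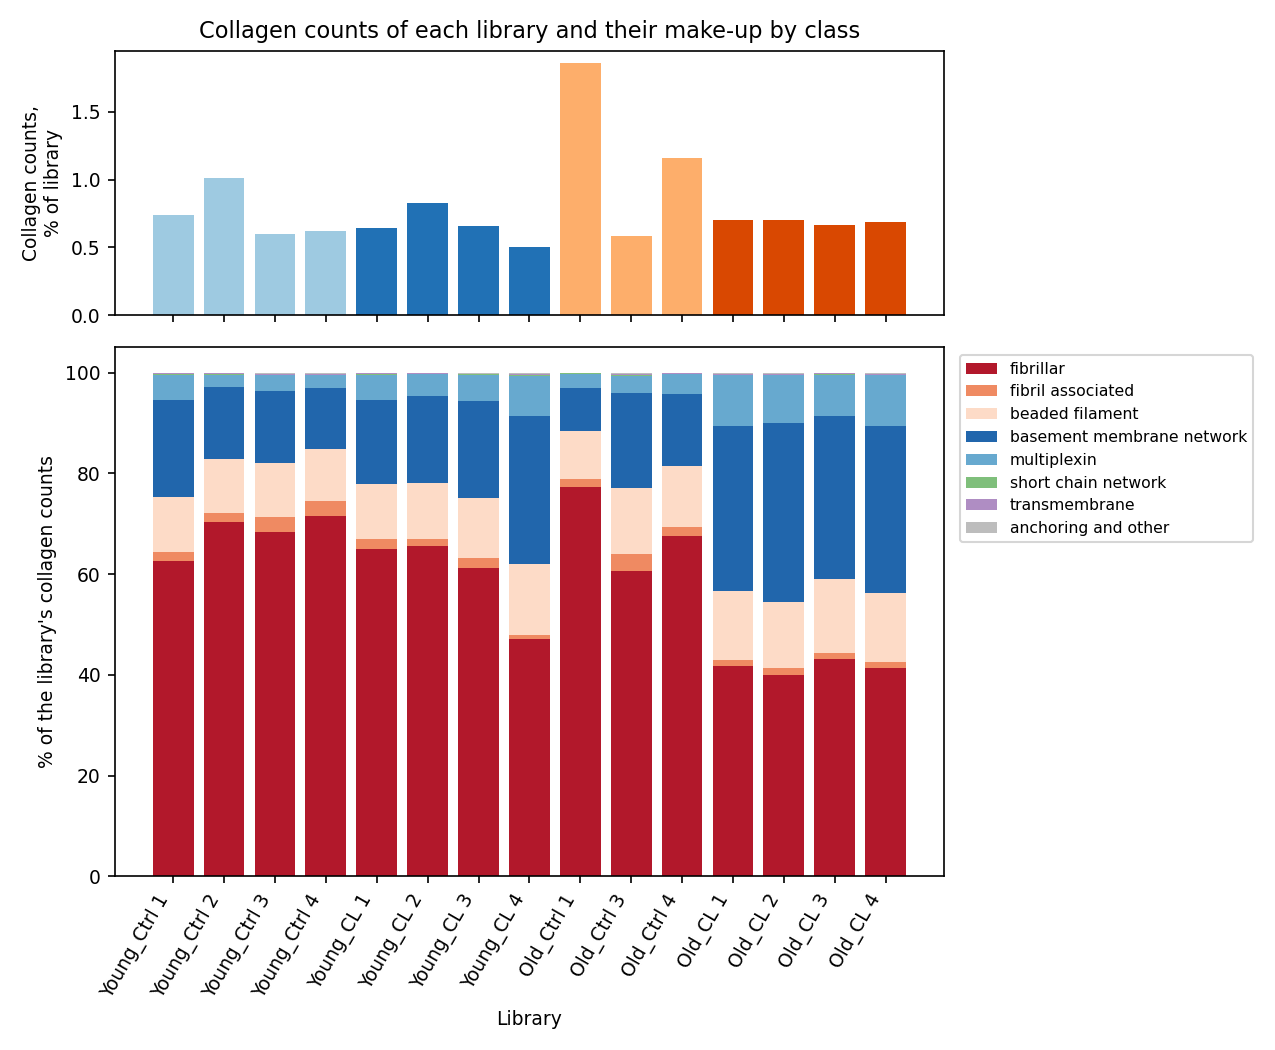
Upper panel: collagen counts as a percentage of all counts in each of the 15 libraries, coloured by group. Lower panel: the share of each collagen class within those counts, where the fibrillar share is at most 43.1% in the Old_CL libraries and 47.2% to 77.2% in the others.

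Levels per kilobase were taken over all annotated exons of a gene joined, which can be longer than any single transcript. The order of genes within a group depends on these lengths, which were 12.4 kb for Col1a2 and 6.56 kb for Col1a1. Before this division Col1a2 stood above Col1a1 in Young_Ctrl, at mean levels of 1106 and 637 CPM. Compared per kilobase, Col3a1 stood highest in Young_Ctrl at 211 ± 59.6 CPM per kb (n = 4). It did not overlap the next gene, Col1a1, at 97.0 ± 35.1. Col1a1, Col1a2 (89.0 ± 19.6), Col4a1 (81.4 ± 29.5), Col6a1 (57.1 ± 14.6) and Col4a2 (52.1 ± 20.0) followed, each overlapping its neighbour in the order. In Old_CL the order was another. Col4a1 led with 230 ± 11.1 CPM per kb and did not overlap Col4a2 at 137 ± 7.86, which overlapped Col3a1 at 133 ± 4.96, and Col15a1 (84.2 ± 11.9) stood beside Col6a1 (90.3 ± 4.72) and Col1a1 (78.3 ± 4.06). In Old_Ctrl Col3a1 (347 ± 237, n = 3) and Col1a1 (266 ± 184) again led, with ranges over the libraries that overlap those of Col1a2 and Col4a1.

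**Figure D2:**
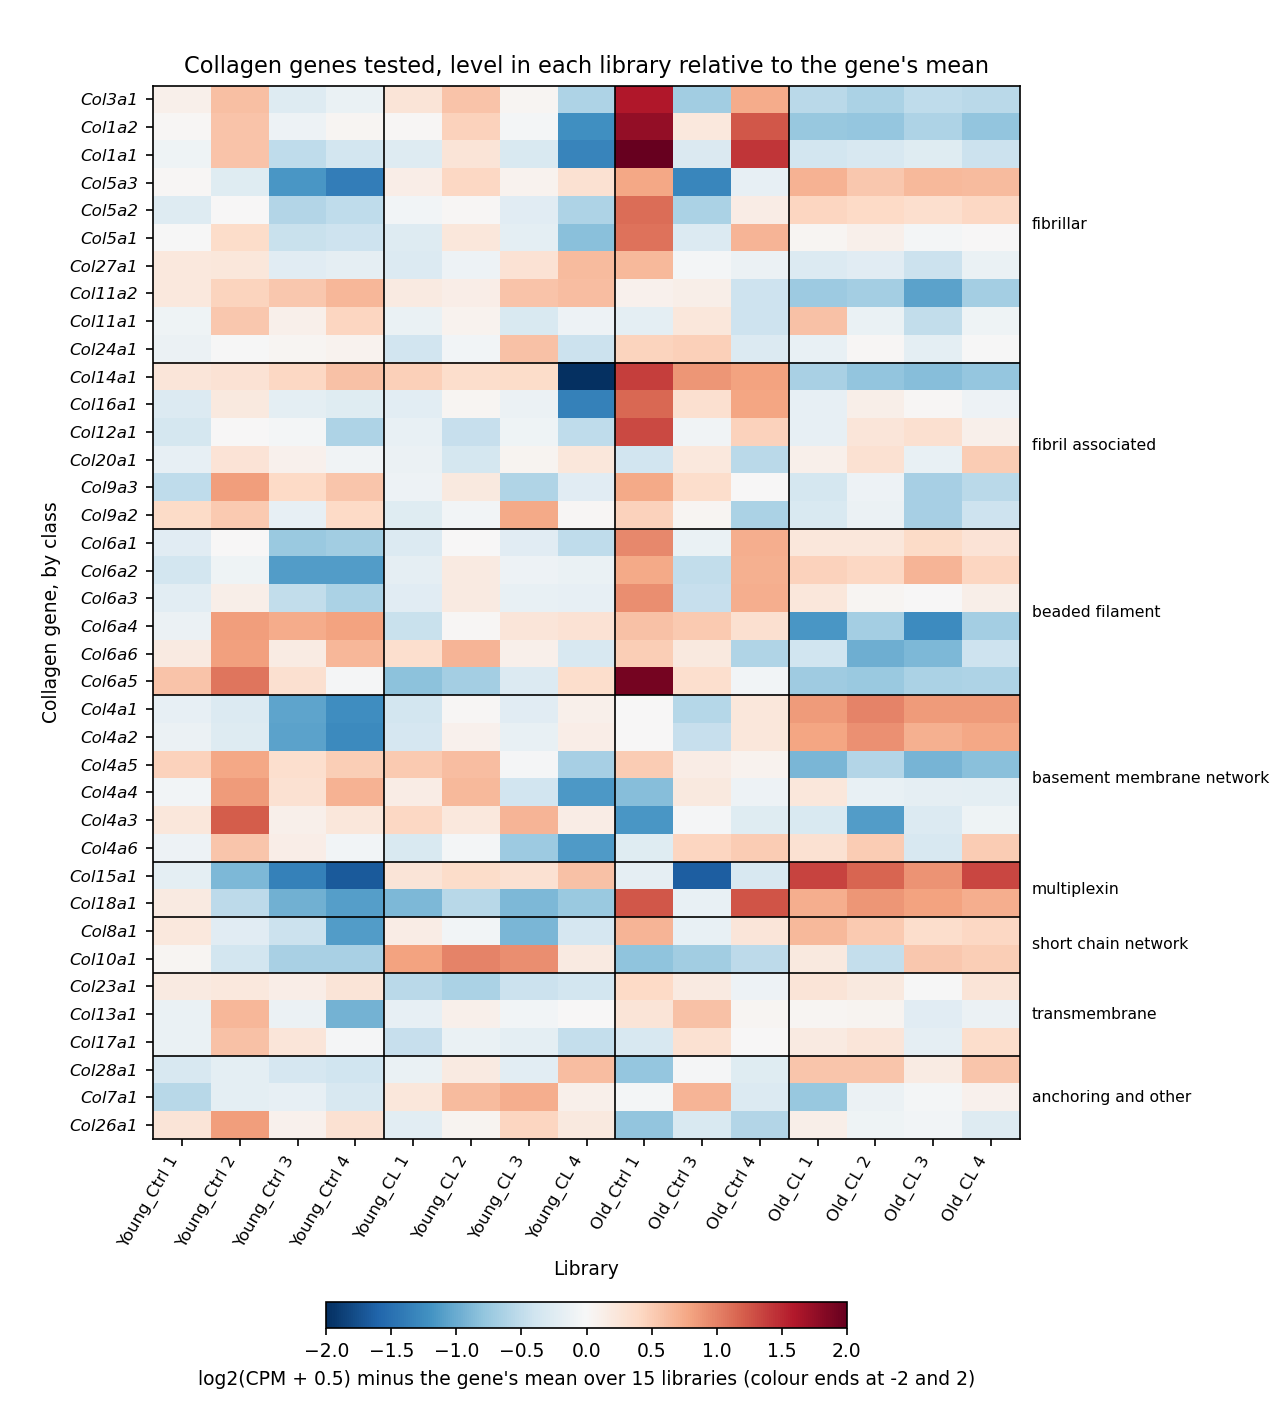
Each row is 1 of the 38 tested collagen genes, grouped by class, and each column 1 of the 15 libraries. Colour gives log2(CPM + 0.5) minus the gene's mean over the libraries, so that Old_Ctrl 1 and 4 stand out as high in Col1a1, Col1a2 and Col3a1 and the 4 Old_CL libraries as high in Col4a1, Col4a2 and Col15a1.

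Promoter windows are shown for 3 genes with calls described below. Col15a1 was called higher under CL at both ages, Col3a1 lower under CL at 12 months, and Col23a1 different between ages in its CL response. The Col3a1 call and that of Col23a1 between ages were each lost in fits with 1 library left out. Each window is the 250 bases before the start of the gene in RefSeq on GRCm38.p6, plus strand, with matches to 3 core promoter motifs in capitals. The windows are chr4:47207762-47208011 (Col15a1), chr1:45311288-45311537 (Col3a1) and chr11:51289670-51289919 (Col23a1), and none holds an annotated exon.
Col15a1: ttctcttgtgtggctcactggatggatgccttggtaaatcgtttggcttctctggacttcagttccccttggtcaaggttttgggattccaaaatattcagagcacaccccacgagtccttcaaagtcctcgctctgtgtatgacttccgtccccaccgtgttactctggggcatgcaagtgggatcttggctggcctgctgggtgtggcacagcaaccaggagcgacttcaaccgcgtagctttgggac
Col3a1: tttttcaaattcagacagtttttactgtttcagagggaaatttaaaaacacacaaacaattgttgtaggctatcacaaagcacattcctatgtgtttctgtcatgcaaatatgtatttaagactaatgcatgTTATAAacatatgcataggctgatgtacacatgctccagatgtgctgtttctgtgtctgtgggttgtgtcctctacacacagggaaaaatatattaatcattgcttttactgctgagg
Col23a1: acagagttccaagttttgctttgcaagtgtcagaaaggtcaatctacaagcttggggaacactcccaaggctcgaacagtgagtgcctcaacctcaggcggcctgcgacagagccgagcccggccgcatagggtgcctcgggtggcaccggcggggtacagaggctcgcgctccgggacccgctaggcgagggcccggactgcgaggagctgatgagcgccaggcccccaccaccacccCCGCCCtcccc
The motifs, searched on both strands, were the TATA core (TATAA), the CCAAT box (CCAAT) and the GC box (GGGCGG), none of which contains another. The Col15a1 window holds none of them, that of Col3a1 holds TATAA on both strands in overlapping positions, and that of Col23a1 holds GGGCGG on the minus strand. The 32 members with a promoter entry have 34 windows. Of these windows 21 hold GGGCGG, 11 CCAAT and 6 TATAA, where 32.7%, 33.8% and 22.8% of all 32851 windows of this length do. A match describes these letters only.

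At 12 months 4 of 10 tested fibrillar genes, Col1a1, Col1a2, Col3a1 and Col11a2, were called lower under CL than under vehicle and 0 higher, where 22.2% and 23.1% of all tested genes were called lower and higher. Col1a1, the major chain of type I collagen, stood at 2953, 534 and 1754 CPM in Old_Ctrl 1, 3 and 4 and at 504, 520, 547 and 485 CPM in Old_CL 1 to 4. Col1a2, its partner, stood at 3345, 1151 and 2358 CPM against 586, 578, 645 and 575. Every Old_CL value of Col1a2 lay below every Old_Ctrl value, while for Col1a1 Old_Ctrl 3 fell within the Old_CL range. The log2 changes were -1.76 (SE 0.44, adjusted p = 0.0052) for Col1a1 and -1.94 (SE 0.34, adjusted p = 4.4e-04) for Col1a2, by edgeR's quasi-likelihood test with Benjamini-Hochberg adjustment over 15288 genes, which gives every adjusted p below. Both calls held under all 29 alternatives, but Old_Ctrl 1 moved the size of the Col1a1 change, which was -1.15 (adjusted p = 0.046) without it.

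Col3a1, the chain of type III collagen that joins type I in the same fibres, read 5820, 1183 and 3220 CPM in Old_Ctrl 1, 3 and 4 and 1238 to 1351 CPM in Old_CL. Its change was -1.38 (SE 0.38, adjusted p = 0.0090), and Old_Ctrl 3 lay below the Old_CL libraries. This call rested on Old_Ctrl 1: without it the log2 change was -0.75 (adjusted p = 0.11). Col11a2, a minor fibrillar chain, was also called lower (-0.80, SE 0.19, adjusted p = 0.0035). Its call was lost with the B cell score in the model (-0.38, adjusted p = 0.059) and without the muscle-rich libraries (-0.54, adjusted p = 0.088). The type V chains, which set fibril diameter, did not pass: Col5a1 changed by -0.57 (SE 0.28, adjusted p = 0.11), Col5a2 by 0.01 (SE 0.28) and Col5a3 by 0.64 (SE 0.39, adjusted p = 0.20). Without Old_Ctrl 3 the Col5a1 value was -0.87 (adjusted p = 0.012), and without Old_Ctrl 1 that of Col5a3 was 1.26 (adjusted p = 0.016). Col11a1 (0.06), Col24a1 (-0.56) and Col27a1 (-0.45) did not pass either.

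**Figure D3:**
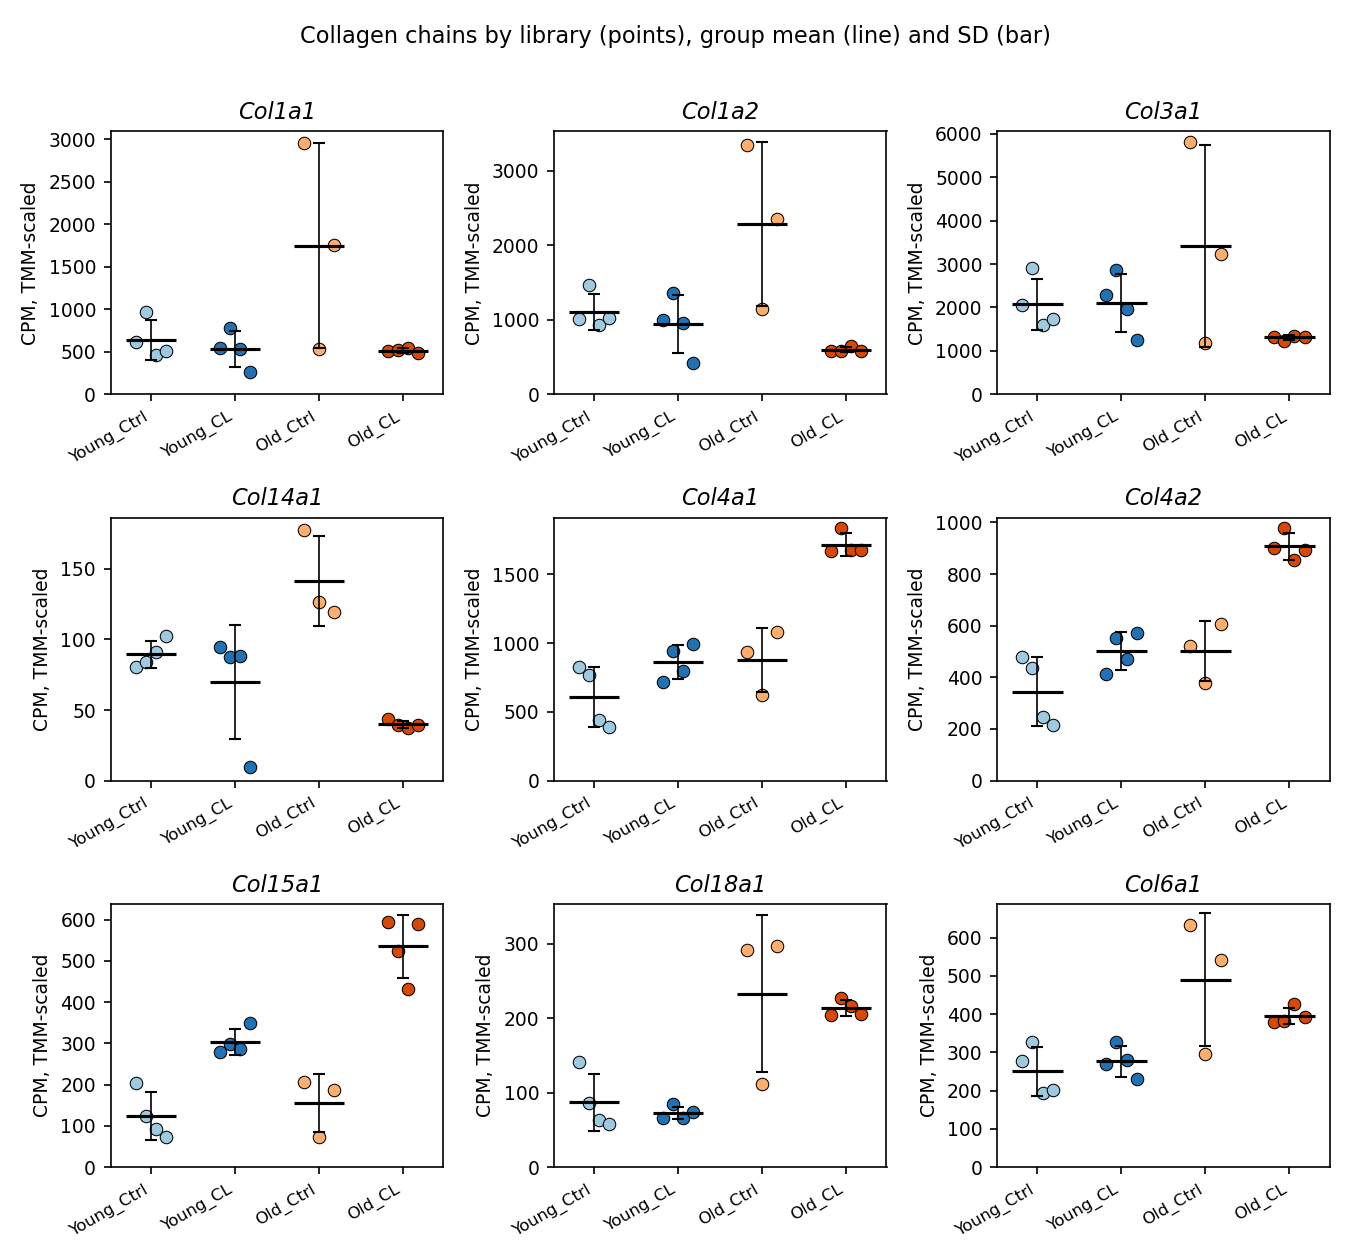
Each panel shows 1 gene, with a point per library, the group mean as a line and the SD as a bar, in CPM after TMM scaling on an axis from 0. In Col1a1, Col1a2 and Col3a1 the 3 Old_Ctrl points are spread widely and the 4 Old_CL points lie together, while in Col4a1, Col4a2 and Col15a1 the Old_CL points lie above all others.

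Among the fibril-associated genes Col14a1, which binds fibrils during their growth, stood at 178, 127 and 120 CPM in Old_Ctrl 1, 3 and 4 and at 37.4 to 43.4 CPM in Old_CL, with no overlap. It changed by -1.82 (SE 0.48, adjusted p = 0.0082). Col16a1 changed by -0.81 (SE 0.25, adjusted p = 0.016) and Col9a3 by -1.03 (SE 0.35, adjusted p = 0.024). Without Old_Ctrl 1 the Col16a1 change was -0.61 (adjusted p = 0.085). The Col9a3 call was lost without any 1 of Old_Ctrl 1, Old_Ctrl 3, Old_CL 3 or Old_CL 4 (-1.02 to -0.84, adjusted p 0.057 to 0.082), and 6.07% of its exon length overlaps Tcfl5. Col12a1 (-0.53), Col20a1 (0.41) and Col9a2 (-0.96) were not called.

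Of the 6 type IV chains 2 were called higher under CL at 12 months and 1 lower, with a median change of -0.06. The higher ones were Col4a1 and Col4a2, the pair that forms the common type IV trimer. Col4a1 stood at 933, 625 and 1079 CPM in Old_Ctrl 1, 3 and 4 and at 1668, 1839, 1674 and 1680 CPM in Old_CL 1 to 4, a log2 change of 0.96 (SE 0.25, adjusted p = 0.0058). Col4a2 stood at 523, 378 and 607 against 856 to 980 CPM, a change of 0.85 (SE 0.25, adjusted p = 0.011). Neither gene's groups overlapped. Without Old_Ctrl 3 the Col4a2 value was 0.68 (adjusted p = 0.061), and with the 5 muscle-rich libraries left out together both calls were lost (0.78 and 0.71, adjusted p = 0.068 and 0.096). Col4a5, a chain of other type IV trimers, fell from 9.66 to 13.3 CPM in Old_Ctrl to 4.58 to 5.95 in Old_CL (-1.12, SE 0.25, adjusted p = 0.0021). Col4a3, Col4a4 and Col4a6 were not called (-0.17, 0.05 and -0.16).

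Col15a1, the proteoglycan collagen of type XV, rose as well. It stood at 206, 73.6 and 186 CPM in Old_Ctrl 1, 3 and 4 and at 594, 523, 432 and 590 CPM in Old_CL 1 to 4, a log2 change of 1.79 (SE 0.35, adjusted p = 0.0010) that was called under all 29 alternatives. Col18a1, the parent of the endostatin fragment, was not called (-0.13, SE 0.31, adjusted p = 0.76), with 292, 111 and 296 CPM against 204 to 228. Among type VI chains the abundant trio Col6a1 (-0.31), Col6a2 (0.08) and Col6a3 (-0.41) were not called, although without Old_Ctrl 3 Col6a1 changed by -0.57 (adjusted p = 0.030) and Col6a3 by -0.73 (adjusted p = 0.0055). The 3 scarce type VI chains were all called lower: Col6a4 (-1.51, SE 0.24, adjusted p = 2.3e-04), Col6a5 (-1.75, SE 0.44, adjusted p = 0.0050) and Col6a6 (-0.81, SE 0.31, adjusted p = 0.041). Their highest Old_CL values were 4.58, 2.78 and 3.71 CPM. Col6a5 stood at 18.4 CPM in Old_Ctrl 1 and at 5.86 and 4.32 in Old_Ctrl 3 and 4, so that without Old_Ctrl 1 its change was -0.94, and with the B cell score in the model the call was lost (adjusted p = 0.14). The Col6a6 call was lost without any 1 of Young_CL 1, Old_Ctrl 1, Old_Ctrl 3, Old_CL 2 or Old_CL 3 (-0.81 to -0.59, adjusted p 0.050 to 0.16).

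Of the remaining classes, Col28a1, a collagen known from the nerve sheath, was called higher (0.78, SE 0.21, adjusted p = 0.0069), while Schwann cell markers summed to 428 to 441 CPM in Old_Ctrl and 398 to 420 in Old_CL. Col10a1, the short-chain collagen known from growth plate cartilage, had 0, 2 and 3 counts in Old_Ctrl 1, 3 and 4 and 7, 2, 26 and 13 counts in Old_CL 1 to 4. It reached the inclusion limit in 5 CL libraries and 0 vehicle libraries, so the limit itself fixes that it is higher under CL, and no test of it is given. Of its exon length 0.575% overlaps Nt5dc1, and whether counting used strand is not given in the sources used here. Col23a1 (0.02), Col17a1 (0.08), Col13a1 (-0.47), Col7a1 (-0.44), Col8a1 (0.25) and Col26a1 (1.23) were not called.

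Counted over the 38 tested members, 5 were higher and 11 lower under CL at 12 months, beside the same 23.1% and 22.2% of all tested genes. The median log2 change was -0.36 for the members and -0.01 for all tested genes. In 15 of 38 the groups did not overlap, against 52.8% of all tested genes. Over the 35 members that reach 0.5 CPM in a single library or more of every group, the calls were 4 higher and 11 lower. The difference was Col10a1. With Old_CL 1, 2 and 4 summed to a single library 9 members were called, and Col3a1, Col14a1, Col16a1, Col9a3, Col4a2, Col6a6 and Col28a1 lost their calls (adjusted p 0.052 to 0.082).

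Marker genes of cell types moved in the same comparison. Of 9 fibroblast and progenitor markers 6 were lower and 0 higher, with summed levels of 16029 to 23353 CPM in Old_Ctrl and 14793 to 14898 in Old_CL. Adipocyte markers were higher (6 of 8, 20610 to 30717 against 50070 to 63124 CPM), as were smooth muscle and pericyte markers (5 of 7, 380 to 387 against 599 to 630 CPM), while of 7 endothelial markers 1 was higher (567 to 671 against 719 to 831 CPM). Macrophage markers were lower (5 of 7, 1367 to 2675 against 854 to 1306 CPM), and so were B cell and lymph node markers (5 of 7, 400 to 827 against 364 to 480 CPM). The part of fibroblasts, adipocytes, mural cells and macrophages in the collagen changes was not tested. With the B cell score as a covariate 11 members were called. Col1a1, Col1a2 and Col15a1 were among them, and Col4a1 (0.70, adjusted p = 0.072), Col4a2 (0.59, adjusted p = 0.13), Col11a2, Col9a3, Col6a5 and Col6a6 lost their calls (adjusted p 0.059 to 0.35).

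At 2 months Col15a1 was again higher under CL. It stood at 204, 124, 91.2 and 72.1 CPM in Young_Ctrl 1 to 4 and at 279, 299, 286 and 349 CPM in Young_CL 1 to 4, without overlap, a log2 change of 1.31 (SE 0.31, adjusted p = 0.0038). The type I and III chains did not pass, with -0.27 (SE 0.41, adjusted p = 0.62) for Col1a1, -0.24 (SE 0.32, adjusted p = 0.57) for Col1a2 and 0.01 (SE 0.36, adjusted p = 0.98) for Col3a1. Col1a2 stood at 1009, 1466, 930 and 1019 CPM against 1003, 1366, 962 and 424, with Young_Ctrl 2 the highest and Young_CL 4, the muscle-poor library of its group, the lowest. Among the 10 fibrillar genes 0 were called by edgeR, 1 having an unadjusted p under 0.05, with 0 called by limma-voom and 1 by DESeq2.

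For Col4a1 and Col4a2 the log2 changes of 0.51 (SE 0.23, adjusted p = 0.082) and 0.54 (SE 0.23, adjusted p = 0.063) did not pass. Young_Ctrl 1 and 2 were high in Col4a1 at 825 and 768 CPM, Young_Ctrl 3 and 4 low at 444 and 393, and Young_CL ranged from 721 to 992. Without Young_Ctrl 1 the values were 0.69 and 0.75 (adjusted p = 0.017 and 0.010), and without Young_Ctrl 2 they were 0.64 and 0.68 (adjusted p = 0.049 and 0.039). Col5a3 (0.82, SE 0.36, adjusted p = 0.080), Col6a2 (0.56, SE 0.26, adjusted p = 0.094), Col6a1 (0.15), Col6a3 (0.20), Col5a1 (-0.13), Col5a2 (0.12) and Col18a1 (-0.25) did not pass either. Col5a3 passed without Young_Ctrl 1, Old_Ctrl 1 or Old_Ctrl 3 (0.82 to 1.08, adjusted p 0.023 to 0.038), and Col6a2 without Young_Ctrl 2 or Old_Ctrl 3 (0.56 to 0.78, adjusted p 0.027 to 0.032).

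Col23a1, a membrane-spanning collagen, was the member with the smallest p at 2 months. It stood at 11.7, 12.0, 11.3 and 12.4 CPM in Young_Ctrl 1 to 4 and at 6.92, 6.41, 7.46 and 7.84 CPM in Young_CL 1 to 4, a log2 change of -0.74 (SE 0.12, adjusted p = 2.7e-04). Col17a1, another membrane-spanning chain, changed by -0.74 (SE 0.29, adjusted p = 0.048) and Col6a4 by -0.63 (SE 0.23, adjusted p = 0.034). Col7a1, the anchoring fibril chain of skin, changed by 0.82 (SE 0.27, adjusted p = 0.023) and Col28a1 by 0.50 (SE 0.20, adjusted p = 0.049). Col10a1 had 3, 2, 1 and 1 counts in Young_Ctrl and 29, 28, 7 and 6 in Young_CL, a direction that the inclusion limit fixes as above.

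Several of these calls were narrow. That of Col28a1 was lost in 10 of the 15 fits with 1 library left out, all but those without Young_CL 1, Young_CL 3, Old_Ctrl 1, Old_Ctrl 3 and Old_CL 3 (0.31 to 0.55, adjusted p 0.058 to 0.18). The Col17a1 call was lost without any 1 of Young_Ctrl 2, Young_Ctrl 3, Young_CL 1, Young_CL 4, Old_Ctrl 4, Old_CL 1, Old_CL 2 or Old_CL 4 (-0.74 to -0.54, adjusted p 0.054 to 0.15). Col6a4 was lost without any 1 of Young_Ctrl 2, 3 or 4 or Young_CL 1 or 2 (-0.62 to -0.47, adjusted p 0.073 to 0.12), and Col7a1 without Young_Ctrl 4, Young_CL 2 or Young_CL 3 (0.70 to 0.81, adjusted p 0.054 to 0.071). Col15a1 and Col23a1 were called in every fit with 1 library left out. With the 5 muscle-rich libraries out together, which leaves Young_CL 4 alone in its group, Col23a1 changed by -0.61 (adjusted p = 0.080) and Col1a2 by -1.39 (adjusted p = 0.012), where the lone library is assumed to vary like the other groups.

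In all 4 of 38 members were higher and 3 lower under CL at 2 months, against 21.7% and 22.1% of all tested genes. The 35 members that reach 0.5 CPM in a single library or more of every group gave 3 and 3, without Col10a1. The median log2 change was -0.17 for the members and -0.07 for all tested genes, and groups did not overlap in 5 members, against 34.1% of all. Skeletal muscle markers were at 42.1 to 311 CPM in Young_Ctrl and 50.7 to 4271 CPM in Young_CL, with 10 of 10 estimates above 0 but 0 called by edgeR, 2 having an unadjusted p under 0.05, with 0 called by limma-voom and 7 by DESeq2. With the muscle score as a covariate 4 members were called. B cell and lymph node markers fell (7 of 7, 1158 to 1629 against 680 to 972 CPM), and with that score in the model edgeR called 0 members, 4 having an unadjusted p under 0.05. These sums did not overlap between the groups, so that fit cannot tell the score from CL. Adipocyte markers rose (5 of 8, 11281 to 27294 against 35834 to 42204 CPM), and of 7 Schwann cell markers 2 were higher and 4 lower (617 to 732 against 542 to 702 CPM). Of 9 fibroblast and progenitor markers 1 was lower and 0 higher (8457 to 14388 against 5937 to 10483 CPM). The part of these cell types in the result was not tested. The age and CL comparisons share libraries, and no overlap between their lists is read as a result.

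**Figure D4:**
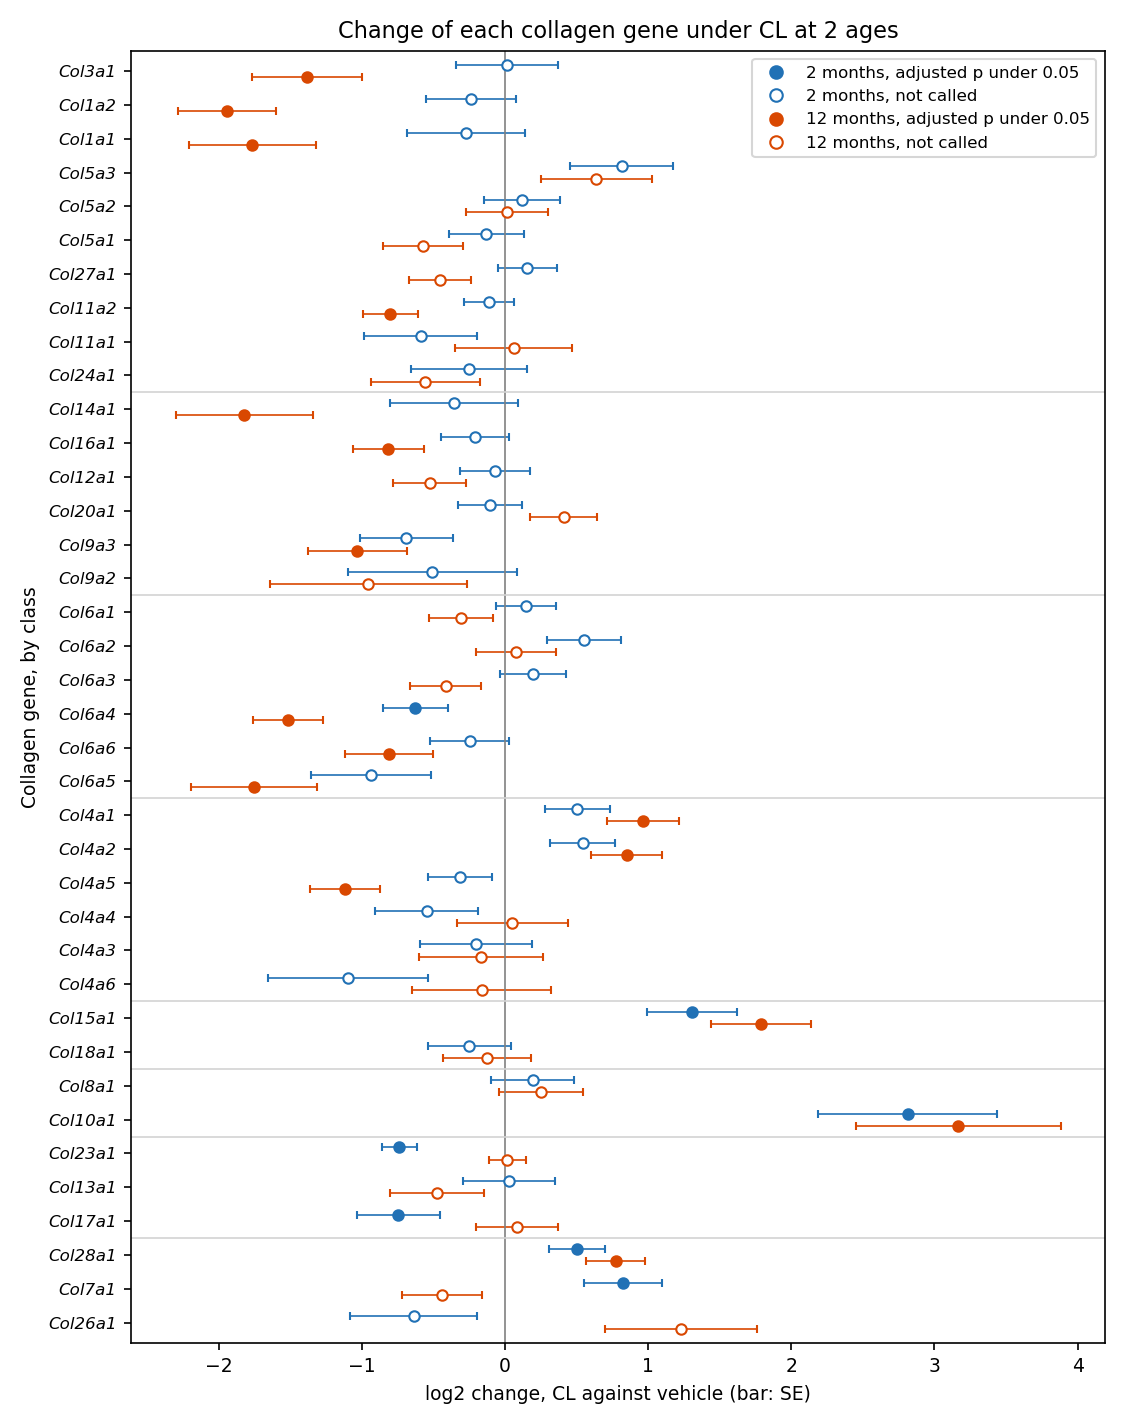
Log2 change under CL with its SE for each of the 38 tested collagen genes, grouped by class, at 2 months (blue) and 12 months (orange). Filled points have an adjusted p under 0.05: the fibrillar genes Col1a1, Col1a2, Col3a1 and Col11a2 are filled at 12 months only, and Col15a1 is filled at both ages. Col10a1 is drawn filled at both ages too, but the inclusion limit fixes its direction, and its points are not read as a result.

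Whether the CL response differed with age was tested as an interaction, and 1 member was higher and 1 lower at 12 months, against 3.31% and 3.77% of all tested genes. Col23a1 differed by 0.75 (SE 0.18, adjusted p = 0.022): Old_Ctrl 1, 3 and 4 stood at 13.7, 11.7 and 9.56 CPM and Old_CL 1 to 4 at 12.4, 11.8, 10.2 and 12.3, a change of 0.02 (SE 0.13) against -0.74 at 2 months. Its call was lost without any 1 of Young_CL 1, Young_CL 2, Old_Ctrl 4, Old_CL 1 or Old_CL 4 (0.63 to 0.74, adjusted p 0.051 to 0.068). Col1a2 differed by -1.70 (SE 0.46, adjusted p = 0.039). That call was lost in 11 of 15 fits with 1 library left out, all but those without Young_Ctrl 2, Young_CL 4, Old_Ctrl 3 and Old_CL 3 (-1.69 to -1.32, adjusted p 0.058 to 0.10), and with the muscle-rich libraries out it was -0.91 (adjusted p = 0.29).

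Col1a1 (-1.49, SE 0.60, adjusted p = 0.13), Col3a1 (-1.40, SE 0.52, adjusted p = 0.11) and Col14a1 (-1.47, SE 0.65, adjusted p = 0.18) did not pass, so that a difference between ages in their response was not shown. Without Old_Ctrl 3, Col1a1 (-1.92, adjusted p = 0.018), Col3a1 (-1.80, adjusted p = 0.013) and Col6a3 (-0.93, adjusted p = 0.026) passed. For Col4a1 (0.46, SE 0.33), Col4a2 (0.31, SE 0.33), Col15a1 (0.48, SE 0.45), Col18a1 (0.12, SE 0.42), Col5a1 (-0.44, SE 0.38), Col5a2 (-0.11, SE 0.39), Col5a3 (-0.18, SE 0.52), Col6a1 (-0.45, SE 0.30), Col6a2 (-0.48, SE 0.38) and Col6a3 (-0.61, SE 0.34) the interaction was not called. Its median was -0.39 over the members and -0.02 over all tested genes.

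Under vehicle, collagen genes of several classes were higher at 12 than at 2 months. The type VI trio rose: Col6a1, at 278, 327, 195 and 201 CPM in Young_Ctrl 1 to 4, stood at 632, 296 and 542 CPM in Old_Ctrl 1, 3 and 4. The changes were 0.97 (SE 0.22, adjusted p = 0.0064) for Col6a1, 1.03 (SE 0.28, adjusted p = 0.014) for Col6a2 and 0.79 (SE 0.25, adjusted p = 0.029) for Col6a3. Old_Ctrl 3, the muscle-rich library, fell within the range of Young_Ctrl in each. Col18a1 rose from 141, 85.7, 63.3 and 57.6 CPM to 292, 111 and 296 CPM (1.43, SE 0.31, adjusted p = 0.0052) and was called in every fit with 1 library left out.

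Type I chains rose as well, Col1a1 by 1.46 (SE 0.44, adjusted p = 0.026) and Col1a2 by 1.05 (SE 0.34, adjusted p = 0.033), from 615, 968, 459 and 504 CPM in Young_Ctrl 1 to 4 in the case of Col1a1. Old_Ctrl 3 fell within the range of Young_Ctrl in Col1a1, at 534 CPM, and in Col1a2, at 1151 CPM. Both calls were lost without any 1 of Young_Ctrl 1, Young_Ctrl 3, Young_Ctrl 4, Old_Ctrl 1 or Old_Ctrl 4, and that of Col1a2 also without Young_CL 3. The values then ran from 0.85 to 1.45 (adjusted p 0.052 to 0.16) and from 0.67 to 1.02 (adjusted p 0.051 to 0.17). Col3a1 (0.72, SE 0.38, adjusted p = 0.17), Col5a1 (0.69, SE 0.28, adjusted p = 0.080), Col5a2 (0.70, SE 0.28, adjusted p = 0.078) and Col5a3 (0.57, SE 0.38, adjusted p = 0.28) did not pass. All 4 passed without Old_Ctrl 3, at 1.12, 0.98, 1.02 and 0.95 (adjusted p = 0.015, 0.011, 0.0057 and 0.042), and Col5a1 also without Young_Ctrl 2 (0.87, adjusted p = 0.038).

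Col12a1 (0.91, SE 0.26, adjusted p = 0.019) and Col16a1 (0.90, SE 0.25, adjusted p = 0.018), both on the fibril surface, were higher, and Col11a2 (-0.57, SE 0.19, adjusted p = 0.036) was lower. Col16a1 stood at 25.8, 35.8, 27.2 and 26.3 CPM in Young_Ctrl 1 to 4 and at 69.5, 39.1 and 54.3 in Old_Ctrl, without overlap. Col26a1 had 4, 12, 7 and 10 counts in Young_Ctrl and 0, 11 and 2 in Old_Ctrl, of which the 11 came from the deepest library. It reached the inclusion limit in 4 libraries at 2 months and 0 at 12 months, so the limit fixes this direction too, and no test of it is given. Col4a1 (0.53, SE 0.24, adjusted p = 0.11), Col4a2 (0.55, SE 0.24, adjusted p = 0.10) and Col15a1 (0.34, SE 0.33, adjusted p = 0.47) were not called. Without Young_Ctrl 1 Col4a1 and Col4a2 passed at 0.72 and 0.75 (adjusted p = 0.025 and 0.020), and without Old_Ctrl 3 Col4a1 passed at 0.73 (adjusted p = 0.048).

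Single libraries also decided other calls in this comparison. Col6a2 was lost without Old_Ctrl 1 or Old_Ctrl 4 (0.83 and 0.87, adjusted p = 0.060 and 0.077), and Col6a3 without Young_Ctrl 3, Young_Ctrl 4, Old_Ctrl 1 or Old_Ctrl 4 (0.53 to 0.72, adjusted p 0.083 to 0.15). Col12a1 was lost without Young_Ctrl 4 or Old_Ctrl 1 (0.79 and 0.47, adjusted p = 0.060 and 0.11). Col16a1 was lost without Young_Ctrl 3, Young_Ctrl 4, Old_Ctrl 1 or Old_Ctrl 4 (0.70 to 0.89, adjusted p 0.052 to 0.072). Col11a2 was lost without Young_Ctrl 3, Young_Ctrl 4 or Old_Ctrl 4 (-0.55 to -0.40, adjusted p 0.084 to 0.19).

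Among the 35 members that reach 0.5 CPM in a single library or more of every group, 8 were higher and 1 lower at 12 months under vehicle. Over all 38 members the counts were 8 and 2, against 15.1% and 12.2% of all tested genes. The median was 0.39, against 0.03 over all tested genes, and groups did not overlap in 5 members, against 27.1% of all. The count was 4 without Old_Ctrl 1, 4 without Old_Ctrl 4, 16 without Old_Ctrl 3, 5 without Young_Ctrl 3 and 3 without Young_Ctrl 4. It was 3 when Young_Ctrl and Old_Ctrl were fitted alone. Fibroblast and progenitor markers rose (4 of 9, 8457 to 14388 against 16029 to 23353 CPM) and macrophage markers rose (6 of 7, 699 to 990 against 1367 to 2675 CPM). Smooth muscle and pericyte markers rose too (4 of 7, 186 to 350 against 380 to 387 CPM), and Schwann cell markers fell (4 of 7, 617 to 732 against 428 to 441 CPM). The part of these 4 cell types in the result was not tested. B cell and lymph node markers fell (7 of 7, 1158 to 1629 against 400 to 827 CPM), and with that score in the model edgeR called 0 members, 6 having an unadjusted p under 0.05. These sums did not overlap between the groups, so that fit cannot tell the score from age.

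Under CL 6 members were called higher at 12 than at 2 months, namely Col18a1, Col4a1, Col4a2, Col15a1, Col23a1 and Col8a1, where 20.5% of all tested genes were. Col18a1 stood at 66.3, 84.1, 66.3 and 74.0 CPM in Young_CL 1 to 4 and at 204, 228, 216 and 206 CPM in Old_CL 1 to 4, a log2 change of 1.55 (SE 0.29, adjusted p = 9.5e-04). Col4a1 rose by 0.99 (SE 0.23, adjusted p = 0.0032), Col4a2 by 0.85 (SE 0.23, adjusted p = 0.0077), Col15a1 by 0.82 (SE 0.31, adjusted p = 0.047), Col23a1 by 0.71 (SE 0.12, adjusted p = 4.4e-04) and Col8a1, a network collagen of vessels, by 0.73 (SE 0.27, adjusted p = 0.045). In all 6 of these the groups did not overlap, as was the case in 44.9% of all tested genes. Col11a2 (-1.27, SE 0.18, adjusted p = 9.6e-05), Col4a5 (-1.10, SE 0.23, adjusted p = 0.0017), Col6a4 (-1.05, SE 0.24, adjusted p = 0.0026) and Col6a6 (-1.03, SE 0.29, adjusted p = 0.0098) were lower.

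Col1a1 (-0.04, SE 0.41, adjusted p = 0.95), Col1a2 (-0.66, SE 0.32, adjusted p = 0.11) and Col3a1 (-0.68, SE 0.36, adjusted p = 0.14) were not called under CL. Col5a1 (0.24, SE 0.26), Col5a2 (0.59, SE 0.26), Col5a3 (0.40, SE 0.36), Col6a1 (0.52, SE 0.21), Col6a2 (0.55, SE 0.26) and Col6a3 (0.18, SE 0.23) did not pass either. Old_CL lay above Young_CL without overlap in Col5a2, Col5a3, Col6a1 and Col6a2, in a comparison where 44.9% of all tested genes did not overlap. Without Old_Ctrl 3, a library outside the comparison that takes part in the estimate of spread, Col3a1 (-0.68, adjusted p = 0.044), Col5a2 (0.59, adjusted p = 0.023), Col6a1 (0.52, adjusted p = 0.019) and Col6a2 (0.55, adjusted p = 0.035) passed. Without Old_Ctrl 1, Col5a2 and Col6a1 passed (adjusted p = 0.016 and 0.047), Col6a1 also without Young_Ctrl 2 (adjusted p = 0.049), and Col1a2 passed without Young_CL 4 (-0.90, adjusted p = 0.016).

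In all 6 members were higher and 4 lower, against 20.5% and 19.4% of all tested genes, with a median of 0.09 against -0.01. With RLE scaling in place of TMM the split was 4 higher and 6 lower. Groups did not overlap in 15 members, against 44.9% of all tested genes. The Col15a1 call was lost in 9 and the Col8a1 call in 10 of 15 fits with 1 library left out (0.76 to 0.89, adjusted p 0.051 to 0.10, and 0.55 to 0.79, adjusted p 0.053 to 0.12). For Col15a1 these were all fits but those without Young_Ctrl 1, 3 or 4, Old_Ctrl 1 or 3, or Old_CL 3, and for Col8a1 all but those without Young_Ctrl 1 or 4, Young_CL 1, or Old_Ctrl 1 or 3. With the muscle-rich libraries left out 5 members were called, and Col4a5 then changed by -0.14 (adjusted p = 0.78). Fitted alone, Young_CL and Old_CL gave 18 calls. Adipocyte (5 of 8), smooth muscle and pericyte (5 of 7), endothelial (3 of 7) and macrophage (2 of 7) markers were higher at 12 months under CL. Schwann cell markers were lower (4 of 7, 542 to 702 against 398 to 420 CPM). Of 9 fibroblast and progenitor markers 2 were higher and 2 lower, with a median log2 change of -0.54. Their summed level went the other way, from 5937 to 10483 CPM in Young_CL against 14793 to 14898 in Old_CL. The part of these cell types in the result was not tested. B cell markers were lower (7 of 7, 680 to 972 against 364 to 480 CPM), and with their score in the model 4 members were called, with Col18a1 at 0.88 (adjusted p = 0.21) and Col4a1 at 0.50 (adjusted p = 0.36). The B cell sums did not overlap between the groups, so that fit cannot tell the score from age.

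Chains of the same collagen type kept their ratio to different degrees. The log2 ratio of Col4a2 to Col4a1 counts was -0.83 ± 0.07 (SD, n = 15 libraries), with an SD of 0.04 within groups, where the log2 level of Col4a1 itself had an SD of 0.36 within groups. Their gene starts are 21 bases apart on opposite strands in GRCm38, and 22 bases of the models overlap. The Col4a2 to Col4a1 ratio still differed between groups: all 4 Old_CL values (-0.97 to -0.89) lay below those of the other groups (-0.87 to -0.72). Col1a2 to Col1a1, on separate chromosomes, varied more: 0.84 ± 0.21 in Young_Ctrl, 0.82 ± 0.08 in Young_CL, 0.57 ± 0.48 in Old_Ctrl (0.18, 1.11 and 0.43 in replicates 1, 3 and 4) and 0.21 ± 0.04 in Old_CL. Col5a2 to Col5a1 was -0.06 ± 0.29 in Old_Ctrl and 0.60 ± 0.05 in Old_CL, without overlap. Col6a2 to Col6a1 was -0.46 ± 0.16 in Young_Ctrl and -0.01 ± 0.13 in Young_CL, again without overlap. These ratios carry no test.

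**Figure D5:**
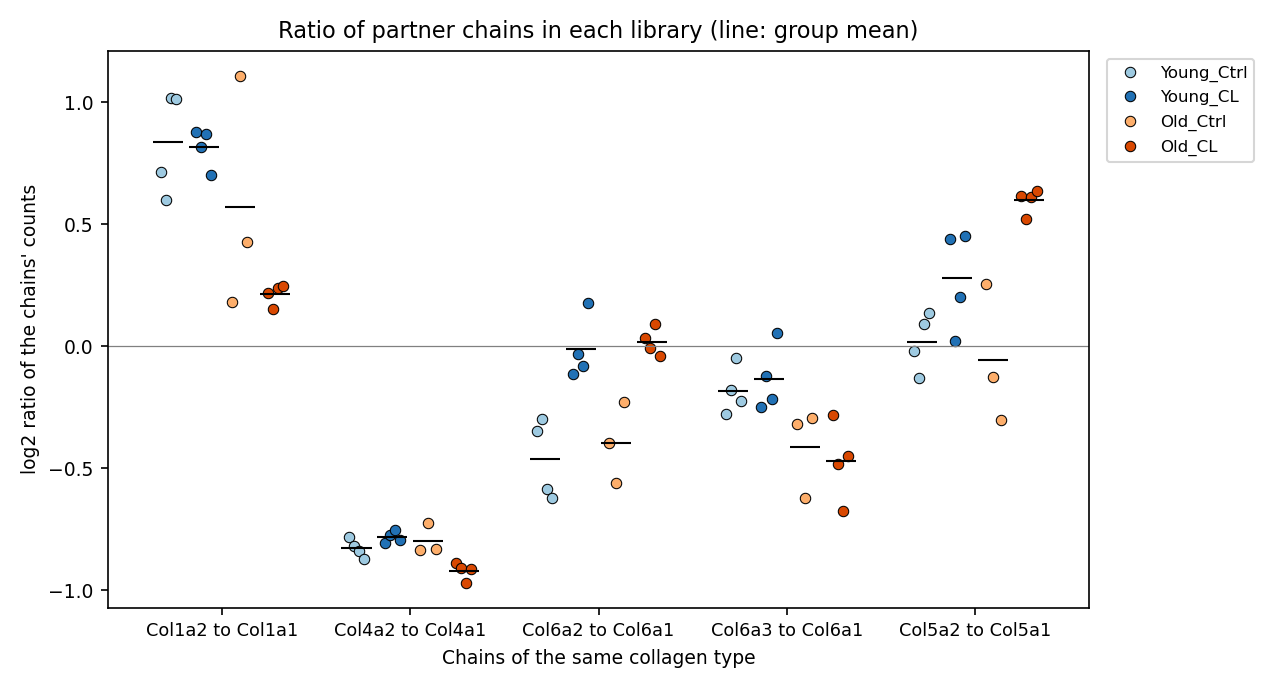
The log2 ratio of the counts of partner chains in each of the 15 libraries, coloured by group, with group means as lines. The Col4a2 to Col4a1 ratios stay between -0.97 and -0.72, lowest in Old_CL, while the Col1a2 to Col1a1 ratios run from 0.15 to 1.11.

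Other neighbouring members are shown for comparison. Col4a3 and Col4a4, whose starts are 72 bases apart, and Col4a5 and Col4a6, whose starts are 1309 bases apart, are arranged head to head like Col4a1 and Col4a2. At 12 months Col4a5 fell under CL (-1.12), and Col4a6 was not called (-0.16, SE 0.49). Col3a1 and Col5a2 lie 24.6 kb apart with their ends facing, and in the same comparison they changed by -1.38 and 0.01. The scarce chains Col6a4, Col6a5 and Col6a6 form a cluster with gaps of 27.9 and 28.8 kb, and all 3 were lower under CL at 12 months.

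The genes most like Col1a1 across the 15 libraries, by Pearson's r of log2 CPM among 10781 other genes with a mean log2 CPM of at least 3, were Ckap4 (0.959), Pcolce (0.950), Loxl2 (0.941), Mfap2 (0.928), Rcn3 (0.927) and Igsf8 (0.923). Pcolce enhances the trimming of fibrillar procollagen and Loxl2 is a lysyl oxidase that crosslinks it. Among members, Col5a1 (0.943), Col1a2 (0.916), Col16a1 (0.893) and Col3a1 (0.885) came closest, and Col4a1 stood at 0.0215. Those most like Col4a1 were Tgm2 (0.988), Gm5627 (0.983), Cebpa (0.977), Scarb1 (0.976), Gas2l1 (0.974) and Tm9sf4 (0.972), with Col4a2 (0.996), Col15a1 (0.896) and Col6a2 (0.859) the closest members. The points share group, library depth and cell make-up, and r here is a description.

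The machinery that makes and processes collagen was read from lists of other genes. The counts below stand beside the shares of all tested genes called higher and lower in the same comparison: 21.7% and 22.1% (CL, 2 months), 23.1% and 22.2% (CL, 12 months), 15.1% and 12.2% (ages compared on vehicle), 20.5% and 19.4% (ages compared on CL), and 3.31% and 3.77% (interaction). In lists this short a few calls lie near these shares and are descriptions of the genes named. For collagen breakdown, 8 of 9 tested genes were lower and 0 higher under CL at 12 months, with a median of -1.30: Mmp3 (-1.92, SE 0.28), Mmp14 (-1.22, SE 0.20), the cathepsin Ctsk (-1.36, SE 0.25) and Fap (-0.75, SE 0.15), with adjusted p from 1.5e-04 to 8.8e-04. The list also holds the inhibitors Timp1 and Timp2, which were among the 8, and the inhibitor Timp3, so its counts are not of breakdown enzymes alone. Under vehicle 7 of 9 were higher at 12 months, led by Ctsk (1.87, SE 0.25, adjusted p = 3.7e-04), the inhibitor Timp3 (1.05), Mmp14 (1.20, SE 0.20, adjusted p = 0.0012) and Mmp3 (1.74). At 2 months edgeR called 0 of 9 under CL, 0 having an unadjusted p under 0.05 and 0 called by limma-voom or DESeq2, with Mmp14 at -0.07 (SE 0.19). The interaction was called for Mmp3 (-1.79), Ctsk (-1.53) and Mmp14 (-1.16, SE 0.27, adjusted p = 0.021). Under CL between the ages 1 was higher (the inhibitor Timp3, 0.81) and 1 lower (Fap, -0.41), with Mmp14 at 0.04.

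For procollagen trimming and crosslinking, 6 of 12 genes were lower and 0 higher under CL at 12 months: Loxl4 (-1.67, SE 0.30, adjusted p = 4.3e-04), Pcolce (-1.18, SE 0.21), Loxl2 (-1.23, SE 0.28) and Loxl3 (-0.49, SE 0.12), besides Bmp1 and Adamts14. Lox, the founding lysyl oxidase, was not called there (0.24, SE 0.21) or at 2 months (-0.26, SE 0.20), but was higher at 12 months under vehicle (1.47, SE 0.21, adjusted p = 6.0e-04) and under CL (1.97, SE 0.21, adjusted p = 7.6e-06). Under vehicle Pcolce (1.07), Adamts2 (0.89) and Loxl1 (0.66) were higher too, making 4 of 12, and under CL Lox was the 1 gene called. At 2 months edgeR called 0 of 12 under CL, 0 having an unadjusted p under 0.05 and 0 called by limma-voom or DESeq2. The interaction was called for Pcolce (-1.06) and not for Lox (0.50, SE 0.29).

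For synthesis and secretion, 11 of 21 genes were higher and 1 lower at 12 months under vehicle, with a median of 0.50, among them the procollagen chaperone Fkbp10 (1.07, SE 0.20, adjusted p = 0.0025), Crtap (0.91), Leprel2 (0.86) and P4hb (0.65). Serpinh1, the collagen chaperone of the endoplasmic reticulum, was higher there (0.69, SE 0.21, adjusted p = 0.024). It was not called under CL at 2 months (0.40, SE 0.19), under CL at 12 months (-0.22, SE 0.21), between ages under CL (0.07, SE 0.19) or in the interaction (-0.62, SE 0.29). P4ha1, a prolyl hydroxylase subunit, was called in none of the 5 comparisons (0.11, -0.16, 0.28, 0.01 and -0.27 in the order 2 months, 12 months, age under vehicle, age under CL, interaction). Under CL at 12 months 2 were higher (Plod3, 0.64; Ctage5, 0.27) and 3 lower, Leprel2 (-0.95, SE 0.17, adjusted p = 4.9e-04), Fkbp10 (-0.97) and Glt25d1 (-0.40). At 2 months 1 was higher (Sec23a, 0.28) and 1 lower (Creb3l2, -0.46). Between ages under CL 8 were higher and 1 lower, led by Sec24d (adjusted p = 6.4e-05), Creb3l2 (1.22), Plod3 (1.23) and P4hb (0.52), and the interaction was called for Fkbp10 (-1.09) and Leprel2 (-0.85).

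Among partners of the fibrils 7 of 15 were lower and 1 higher at 12 months under CL. Decorin (Dcn, -1.32, SE 0.27, adjusted p = 0.0013), Lum (-1.13, SE 0.25), Fmod (-0.69, SE 0.16) and Fn1 (-2.02, SE 0.55) were lower, and Sparc, which binds both fibrils and type IV collagen, was the 1 called higher (0.77, SE 0.22). Under vehicle 9 of 15 were higher at 12 months and 0 lower, led by Thbs2 (2.12), Thbs1 (1.29), Bgn (1.35) and Fbln2 (1.85), and under CL 7 and 0, led by Thbs1 (1.82), Thbs2 (2.40), Bgn (1.64) and Fbln2 (1.53). At 2 months under CL 1 was higher (Lum, 0.64) and 2 lower (Fmod, -0.75; Thbs1, -0.36), and the interaction was called for Lum (-1.77, SE 0.34, adjusted p = 0.0094).

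Partners of the basement membrane sheet were higher in 4 of 10 and lower in 1 under CL at 12 months: Nid2 (0.88, SE 0.16, adjusted p = 4.4e-04), Hspg2 (0.85, SE 0.25) and Lama4 (0.51, SE 0.16) were higher, as was Nid1, while the laminin chain Lama2 was lower (-0.92, SE 0.19). These counts are set against 23.1% and 22.2% of all tested genes, as are the receptors' below. At 2 months Nid2 (0.48) and Lamb1 (0.41) were higher and Lamb2 lower (-0.54). At 12 months against 2, 4 of 10 were higher under vehicle, Lamb1 (0.57), Lamb2 (0.55), Hspg2 (0.70) and Nid1 (0.44), and 7 of 10 under CL, led by Hspg2 (1.41), Nid1 (0.88), Lama4 (0.81) and Lamb2 (0.92), with 0 lower in both. The interaction was called for 0 of 10 by edgeR, 2 having an unadjusted p under 0.05 and 0 called by limma-voom or DESeq2.

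Among 9 collagen receptors, the integrin chain Itga1 was higher under CL at 2 months (0.48, SE 0.16) and at 12 months (1.21, SE 0.17, adjusted p = 9.8e-05). The collagen receptor kinases parted at 12 months, with Ddr1 higher (0.80, SE 0.14) and Ddr2, the receptor of fibrillar collagen, lower (-1.18, SE 0.25), and Lair1 was lower at both ages (-0.73 and -0.97). In all 2 were higher and 3 lower at 12 months, and 2 and 1 at 2 months. With age, Mrc2, which takes up collagen for degradation, was higher under vehicle (1.04, SE 0.20) and under CL (0.96, SE 0.19), in counts of 3 higher and 1 lower, and of 3 higher and 0 lower. The interaction was called for 0 of 9 by edgeR, 3 having an unadjusted p under 0.05, with 0 called by limma-voom and 1 by DESeq2.

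Of the 38 tested members 26 were called in at least 1 comparison and 12 in none: Col5a1, Col5a2, Col5a3, Col11a1, Col24a1, Col27a1, Col4a3, Col4a4, Col4a6, Col9a2, Col13a1 and Col20a1. The 2 members not tested were low. Col8a2 was at 0.12 to 0.44 CPM in the 2-month groups, at 2.31, 0.16 and 1.34 in Old_Ctrl 1, 3 and 4 and at 0.21 to 0.61 in Old_CL. Col22a1 lay between 0.11 and 1.05 CPM over all libraries. Markers of tendon and cartilage summed to between 2.15 and 7.56 CPM, with Tnmd, Acan and Matn1 among those too low to test. Keratins Krt5 and Krt14 of epithelium were too low to test as well, and the 8 epithelial markers summed to between 7.49 and 17.5 CPM.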

How the data were processed

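The labels describe polyA RNA of inguinal white adipose tissue (Trizol, PureLink, TruSeq). The submitters' processing notes name STAR, featureCounts of Subread and the build mm9, without versions. The values the authors deposited are raw counts for 24015 genes and 15 libraries. Here filterByExpr by group left 15288 genes, libraries were TMM-scaled, and edgeR 4.0.16 (R 4.3.3) fitted 1 mean per group over all libraries with robust quasi-likelihood dispersion. A gene's dispersion is shared by all groups, so its SEs and adjusted p-values do not measure the spread of the compared groups alone. A call needed a Benjamini-Hochberg adjusted p below 0.05. Levels are TMM-scaled CPM, the inclusion limit uses unscaled CPM, and SEs were obtained by dividing a change's size by the root of its F statistic. The procedure was tested on simulated data. Exon lengths and distances come from GENCODE M21 (GRCm38), and mm9 coordinates are not given. The alternatives were RLE and upper-quartile scaling, limma-voom (limma 3.58.1), DESeq2 1.42.0, other low-count filters, non-robust dispersion, only the compared groups, a replicate block, each library left out, Old_CL 1, 2 and 4 summed, muscle or B cell scores as covariates, and the 5 muscle-rich libraries left out.

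The members and lists were chosen with earlier results of these data known. The 13 main chains are given in every comparison and other members where called; from each pathway list up to 4 called genes with the smallest p are named, besides Serpinh1, P4ha1, Lox and Mmp14. Ctage5, Bmp1, Adamts14, Timp1, Timp2, Sparc and Nid1 were named after their values were seen.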

Additional observations from a re-analysis of the deposited data

Results flagged for a closer look

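In groups of 4 libraries, 29 collagen genes were looked at. A library was sought that lay far from the other 3, relative to the range of its group. Of 87 groups 9 had one. The cut-off is passed by about 1 in 20 independent groups, but these genes share their libraries, so the count is not read against that rate. Old_CL 1, 2 and 4 also lay closer to each other than to Old_CL 3. Young_CL 4 stood apart in Col14a1 at 9.69 CPM, against 87.3 to 95.0 in Young_CL 1, 2 and 3. In Old_CL, replicate 3, the muscle-rich one, stood apart in Col1a2 at 645 CPM, in Col6a2 at 453 CPM, in Col11a2 at 3.03 CPM and in Col28a1 at 8.67 CPM, against 575 to 586, 380 to 390, 3.99 to 4.14 and 11.5 to 11.6 CPM. Old_CL 2 stood apart in Col4a1 at 1839 CPM, against 1668 to 1680. In Young_Ctrl, replicate 2 stood apart in Col1a2 at 1466 CPM and in Col16a1 at 35.8 CPM, against 930 to 1019 and 25.8 to 27.2 CPM, and replicate 1 in Col6a4 at 6.97 CPM, against 13.0 CPM or more in the other 3.

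By the interaction test of edgeR the response to CL was called different between the ages in Col23a1 and Col1a2. The log2 differences were 0.75 (adjusted p = 0.022) and -1.70 (adjusted p = 0.039). Of all tested genes 3.31% were called higher and 3.77% lower. With 1 library left out, the Col23a1 call was lost in 5 of 15 fits and that of Col1a2 in 11.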

How the results depend on the processing

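At 2 months 7 members were called under CL; the count was 4 with the muscle score as a covariate, 0 with the B cell score (4 with an unadjusted p under 0.05) and 3 to 10 with 1 library left out. At 12 months 16 became 9 with Old_CL 1, 2 and 4 summed (13 to 20 with 1 library left out). For age under vehicle 10 became 3 with only the groups compared, 0 with the B cell score (6 with an unadjusted p under 0.05) and 3 to 16 with 1 library left out. In this comparison, under CL at 2 months and for age under CL, the summed B cell markers did not overlap between groups. Those fits cannot tell the score from group. For age under CL 10 became 18 with only the groups compared, 4 with the B cell score and 5 without the muscle-rich libraries (8 to 15 with 1 library left out). For the interaction 2 became 1 with limma-voom, 4 with DESeq2, 0 with Old_CL 1, 2 and 4 summed, 1 with the muscle score, 4 with the B cell score, 0 without the muscle-rich libraries and 0 to 7 with 1 library left out; the fits giving 0 had 6 to 10 members with an unadjusted p under 0.05. Fewer samples enter the summed, left-out and muscle-rich fits and those of only the groups compared. Otherwise the cause was not tested.

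Without the muscle-rich libraries the split was 2 higher and 6 lower at 2 months and 3 and 13 at 12 months. With upper-quartile scaling 2839 genes of all tested were higher and 4491 lower at 2 months, against 3323 and 3383. Of 2634 values of named members under alternatives, 53 changed sign with neither value called, and 1 turned with a call: Col11a2 for age under vehicle was 0.32 with the B cell score (adjusted p = 0.68).

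The replicate number as a block gave 6, 17, 11 and 13 calls in the pairwise comparisons and 2 in the interaction. Deviations of same-numbered samples correlated between -0.24 and 0.34. Differently numbered samples were not correlated for comparison, so these values cannot decide whether the numbers pair the samples. With the block the Col1a2 interaction had an adjusted p of 0.051. Depth limits Col10a1, Col26a1, Col8a2, Col22a1 and Col9a2, which have a few counts per library.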
